A study of Mus musculus with 4 samples.

Results

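The chaperones of the endoplasmic reticulum (ER) and the transcription factor Xbp1 were followed on 4 whole mouse genome arrays of bone marrow-derived macrophages (BMDMs). The set holds 10 genes, namely Hspa5, Hsp90b1, Pdia3, Pdia4, Pdia6, Calr, Xbp1, Dnajb9, Dnajc3 and Sdf2l1, of 23202 genes with a symbol that were measured on every array. They were taken by name, as the non-control probes that carry one of these symbols, and 12 probes were found, with 1 probe each for 8 of the genes and a pair of probes each for Pdia6 and Dnajb9. All cells came from 10-week-old C57BL/6J mice and were differentiated from bone marrow with L929 cell supernatant, a source of M-CSF, for 6 days before 2 days of stimulation. Wild-type cells received IFN-γ at 20 ng/ml and LPS at 100 ng/ml (M1), IL-4 at 50 ng/ml (M2), or IL-4 together with Torin1, an inhibitor of the kinase mTOR, at 250 nM. Cells of the genotype p18 (2400001E08Rik) -/-, here called Lamtor1-deficient after the current name of that gene, received IL-4 at 50 ng/ml. In the study's methods the deletion is conditional, with floxed Lamtor1 removed by a Cre recombinase under the LysM promoter, so it is limited to myeloid cells. The study asked how the lysosomal scaffold Lamtor1 and mTOR act in M2 polarization. Each condition was 1 culture on 1 array, so no difference below has a replicate check or a test.

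Proteins that are secreted or inserted into membranes fold inside the ER. Hspa5 (BiP) and Hsp90b1 (GRP94) hold unfolded chains, calreticulin (Calr) and Pdia3 (ERp57) fold glycoproteins, and disulfide isomerases such as Pdia4 and Pdia6 form and rearrange disulfide bonds. When unfolded protein accumulates, the unfolded protein response (UPR) starts from 3 membrane sensors, Ern1 (IRE1), Atf6 and Eif2ak3 (PERK). IRE1 splices the Xbp1 transcript into the form that encodes an active factor, and spliced XBP1 and cleaved ATF6 then raise the transcription of ER chaperones. Secretory cells are known for high levels of these genes.

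A DNA element known to take part in that induction is the ER stress response element (ERSE), in which CCAAT is followed, after 9 bases of any kind, by CCACG, and the promoters of the set were searched for it because its genes are known as UPR targets. The window ran from 250 bases before to 50 bases after the RefSeq start of each gene (GRCm38.p6), on both strands, and all 10 genes had a promoter in the table. The full element was present in 39 of 32851 promoters (0.119%), and among them in those of 5 of the 10 genes, Hspa5, Hsp90b1, Pdia6, Calr and Dnajc3. With its last base left free (CCACN in place of CCACG, which includes every full match) it was present in 120 promoters (0.365%) and in those of Pdia3 and Pdia4 as well. Xbp1, Dnajb9 and Sdf2l1 held neither form in this window. The related ERSE-II (ATTGG, any base, CCACG, in 0.0365% of promoters), the core of the UPR element (TGACGTGG, 0.676%) and an ATF4 site (TGATGNAAT, 0.965%) were found in the windows of 0 of the 10 genes. A match of letters is a description and not a bound site.

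Of these promoters, 5 are shown, because Hspa5 is the central ER chaperone, Hsp90b1 carries a pair of matches, and Pdia4, Dnajc3 and Calr differ widely in their ratios under Torin1 described below. Each runs 5′ to 3′ in the direction of its gene, from 10 bases before the first match to the base before the start of transcription, and capitals mark the match. The stretches lie at chr2:34772015-34772089 (plus strand) for Hspa5, chr10:86705445-86705666 (minus strand) for Hsp90b1, chr6:47813513-47813630 (minus strand) for Pdia4, chr8:84846932-84847103 (minus strand) for Calr and chr14:118937817-118937931 (plus strand) for Dnajc3.
Hspa5: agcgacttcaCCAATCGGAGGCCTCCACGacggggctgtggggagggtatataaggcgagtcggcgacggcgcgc
Hsp90b1: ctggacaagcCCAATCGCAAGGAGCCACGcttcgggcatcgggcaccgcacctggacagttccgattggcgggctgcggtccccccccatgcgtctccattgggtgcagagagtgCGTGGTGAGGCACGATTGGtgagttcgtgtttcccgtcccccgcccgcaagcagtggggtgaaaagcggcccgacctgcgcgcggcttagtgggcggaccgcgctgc
Pdia4: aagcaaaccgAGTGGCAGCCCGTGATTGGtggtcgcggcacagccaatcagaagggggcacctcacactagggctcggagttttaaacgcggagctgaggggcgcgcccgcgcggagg
Calr: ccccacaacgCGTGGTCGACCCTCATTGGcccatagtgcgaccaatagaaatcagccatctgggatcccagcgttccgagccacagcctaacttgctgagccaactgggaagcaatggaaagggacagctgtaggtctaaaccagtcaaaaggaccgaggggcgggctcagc
Dnajc3: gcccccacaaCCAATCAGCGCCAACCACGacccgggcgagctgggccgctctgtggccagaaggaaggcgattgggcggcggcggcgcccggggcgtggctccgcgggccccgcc
The Hspa5 match began 65 bases before the start. Hsp90b1 had one 212 bases before the start in the direction of the gene and another on the opposite strand 107 bases before it. The match of Dnajc3 began at 105 bases and that of Pdia6 at 98 bases, both in the direction of the gene, while those of Calr at 162 bases and of Pdia4 at 108 bases were on the opposite strand. Pdia3 had the match nearest to its start, at 29 bases.

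**Figure D1:**
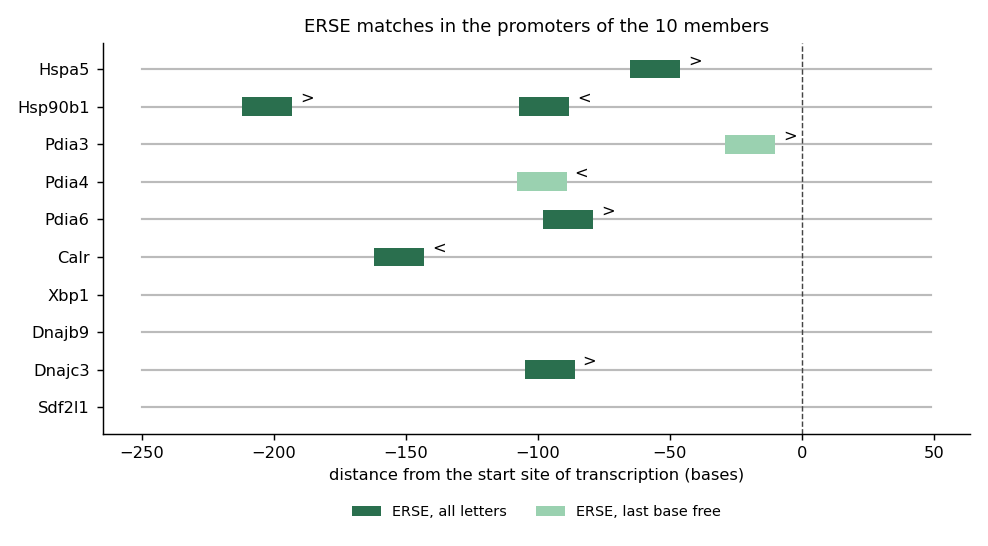
Position of each ERSE match in the promoter of the 10 genes, with the distance from the start of transcription in bases on the x axis. Dark boxes are matches to all letters, light boxes matches with the last base free, and the arrowheads give the strand. Matches were present in 7 of the 10 windows, all of them before the start, and those of Xbp1, Dnajb9 and Sdf2l1 held none.

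All 4 arrays were on 1 slide with a shared scan. Between 50.9% and 55.4% of the 55681 probes were well above background, no spot was saturated, and 170 to 226 spots an array were left out as outliers. The probe of Lamtor1 had 2.34% of the M2 signal on the Lamtor1-deficient array, the array labelled as the knockout. Signals are given as multiples of the 75th percentile of each array, so a level is comparable between arrays for 1 probe and not between probes. The error beside a log2 ratio is a technical SD, from probes spotted at least 8 times on an array, and was 0.090 for Lamtor1-deficient over M2, 0.092 for Torin1-treated over M2 and 0.098 for M1 over M2. It covers spot noise and leaves out the spread between cultures. In RNA of a whole culture, fewer cells of a type and less RNA per cell cannot be told apart. Markers of macrophages (7 of 7, among them Csf1r, Cd68 and Lyz2) were well above background on every array. Their summed signals were 450 (M1), 779 (M2), 640 (Lamtor1-deficient) and 641 (Torin1-treated). A sum mainly follows its brightest probes, since probes are not on a common scale, and Csf1r alone had 485 in M2. Of the 7 markers, Adgre1 (F4/80, Emr1 on the array) and Fcgr1 were 2-fold or more lower than M2 in Lamtor1-deficient and Torin1-treated cells. Their log2 ratios were −2.57 and −4.96 in Lamtor1-deficient cells and −2.81 and −4.61 with Torin1. In M1, Csf1r (−1.24) and Adgre1 (−1.04) were lower and Fcgr1 (2.49) higher.

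The summed signal of 8 neutrophil markers was 90.8 on the M2 array and 4.58 (M1), 6.45 (Lamtor1-deficient) and 5.99 (Torin1-treated) on the others. S100a9 alone had 65.3 in M2. In each comparison 7 of the 8 were more than 2-fold lower. Of all genes, 19.3% (M1), 8.66% (Lamtor1-deficient) and 11.8% (Torin1-treated) were 2-fold or more lower. Ngp, Ltf and Prtn3 were not well above background in M1, and Prtn3 also not in M2. All comparisons share that M2 array, and the part of these markers in the results below was not tested. The summed signal of 8 fibroblast markers was 16.4 in M1, 43.7 in M2, 57.0 in Lamtor1-deficient and 15.7 with Torin1, and Col1a2 alone had 30.9 in M2. Of the markers of B and plasma cells, Ms4a1, Pou2af1 and Mzb1 (2010001M09Rik on the array) were not well above background on any array, and Jchain (Igj on the array) was so on the Lamtor1-deficient array only. Cd79a had log2 ratios to M2 of −1.84 in Lamtor1-deficient cells, −1.61 with Torin1 and −0.43 in M1, and Cd79b of −0.90, −3.50 and −2.73. Prdm1 had −1.50, 1.40 and −2.08 in the same order. Sdc1, which is also found outside those cells, had log2 ratios to M2 of 3.93 with Torin1, 1.94 in Lamtor1-deficient cells and 0.16 in M1. Of 8 markers of T and NK cells, 7 were well above background on the Lamtor1-deficient array and 3 on each other array, with Cd3d, Cd3g, Cd8a and Ncr1 on the former only. Their summed signals were 4.26 (M1), 2.45 (M2), 3.50 (Lamtor1-deficient) and 2.53 (Torin1-treated), and the M1 sum was mostly Cd3e, at 3.59. The part of the fibroblast and lymphocyte markers in the results was not tested.

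Every probe of the set was well above background on each array where it was measured. The Torin1-treated array had none of the 10 genes at its highest or its next highest rank, and it was the lowest array for 5 genes and the next lowest for the other 5. The M2 array was highest for Hsp90b1, Pdia3, Pdia4 and Sdf2l1, the Lamtor1-deficient array for Pdia6, Calr, Xbp1 and Dnajc3, and the M1 array for Hspa5 and Dnajb9. These ranks hold at the 75th percentile scaling and, for Dnajb9, by its dimmer probe, since by the brighter one Torin1-treated cells lay above M2.

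**Figure D2:**
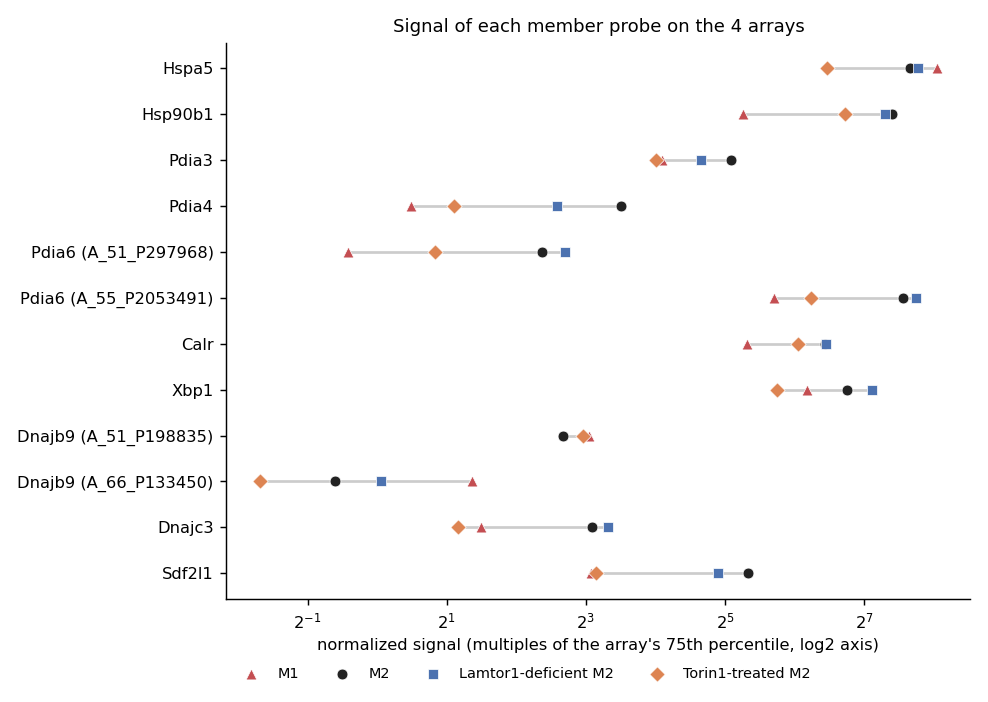
Signal of each of the 12 probes on the 4 arrays, in multiples of the 75th percentile of the array, on a log2 axis; each point is 1 array, and points are compared within a row only. The Torin1-treated points lie left of the M2 and Lamtor1-deficient points in every row but that of Dnajb9 probe A_51_P198835, which has no Lamtor1-deficient point. The Calr points of M2 and Lamtor1-deficient cells coincide.

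Hspa5, the Hsp70-type chaperone that also binds the UPR sensors, was read by probe A_55_P2076772 (mm9, chr2:34631913-34631972). It had signals of 264 in M1, 203 in M2, 219 in Lamtor1-deficient and 88.7 with Torin1. Torin1-treated cells stood apart below, and M2 and Lamtor1-deficient cells lay within 2 technical SDs of each other. The log2 ratio to M2 was −1.19 ± 0.092 with Torin1, which is 2.28-fold lower, 0.11 ± 0.090 in Lamtor1-deficient cells and 0.38 ± 0.098 in M1. The M1 value turned to −0.44 when arrays were aligned at their medians. Hsp90b1, the Hsp90 of the ER that folds Toll-like receptors and integrins, had signals of 38.1 (M1), 169 (M2), 158 (Lamtor1-deficient) and 106 (Torin1-treated). M1 was lowest, with a log2 ratio of −2.15 or 4.43-fold lower than M2. With Torin1 the ratio was −0.67 and so stayed within 2-fold, and Lamtor1-deficient cells, at −0.10, lay within 2 technical SDs of M2.

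Calr, the lectin chaperone that retains monoglucosylated glycoproteins, had signals of 39.9 in M1, 86.8 in M2, 87.4 in Lamtor1-deficient and 66.3 with Torin1. The M2 and Lamtor1-deficient arrays were almost equal, with a log2 ratio of 0.01, and under Torin1 the ratio was −0.39, nearer to 0 than that of any other gene of the set but Dnajb9 by its brighter probe. In M1 it was 2.18-fold lower (−1.12). Pdia3, the isomerase that works with calreticulin and calnexin, had signals of 17.2 (M1), 34.1 (M2), 25.1 (Lamtor1-deficient) and 16.1 (Torin1-treated). M1 and Torin1-treated cells were within 2 technical SDs of each other at the low end, with log2 ratios to M2 of −0.99 and −1.08, and Lamtor1-deficient cells lay between, at −0.44.

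Pdia4 (ERp72), a disulfide isomerase, had signals of 1.40 in M1, 11.4 in M2, 5.98 in Lamtor1-deficient and 2.15 with Torin1. No neighbouring arrays in that order were within 2 technical SDs, and Pdia4 had the lowest log2 ratio of the 10 genes in each comparison, −0.93 in Lamtor1-deficient cells (1.90-fold lower), −2.40 with Torin1 (5.29-fold lower) and −3.02 in M1 (8.11-fold lower). Pdia6 (P5), an isomerase that also attenuates IRE1 and PERK, had a pair of probes. The brighter one read 52.3 (M1), 189 (M2), 214 (Lamtor1-deficient) and 75.5 (Torin1-treated), and the dimmer one 0.750, 5.18, 6.53 and 1.78 in the same order. Both put M2 and Lamtor1-deficient cells high and M1 lowest. Under Torin1 the brighter probe gave −1.33 and the dimmer −1.54, in M1 −1.86 and −2.79, and in Lamtor1-deficient cells 0.18 and 0.34.

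Dnajc3 (p58IPK), a co-chaperone of BiP and an inhibitor of PERK, had signals of 2.83 (M1), 8.50 (M2), 9.96 (Lamtor1-deficient) and 2.25 (Torin1-treated). M1 and Torin1-treated cells were low and the other arrays high, and no neighbours lay within 2 technical SDs. The log2 ratio was −1.92 with Torin1 (3.79-fold lower), −1.59 in M1 and 0.23 in Lamtor1-deficient cells. Sdf2l1, which stabilizes the BiP cycle together with an ER J-protein, had signals of 8.39 in M1, 40.2 in M2, 29.7 in Lamtor1-deficient and 8.85 with Torin1. It was 4.54-fold lower with Torin1 (−2.18) and 4.78-fold lower in M1 (−2.26), which lay within 2 technical SDs of each other, and in Lamtor1-deficient cells the ratio was −0.43.

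Dnajb9 (ERdj4), a co-chaperone that recruits BiP to IRE1, was read by 2 probes that did not give the same order. The brighter probe, A_51_P198835 (mm9, chr12:45307313-45307372), had signals of 8.27 in M1, 6.39 in M2 and 7.75 in Torin1-treated cells, and its spot on the Lamtor1-deficient array was marked as non-uniform and left out. The dimmer probe, A_66_P133450 (mm9, chr12:45308272-45308331), which was measured on every array and stands for the gene in the counts, had 2.58 (M1), 0.658 (M2), 1.04 (Lamtor1-deficient) and 0.312 (Torin1-treated). The probes opposed each other under Torin1, with log2 ratios of 0.28 for the brighter and −1.08 for the dimmer. In M1 both were above 0, at 0.37 and 1.97. In Lamtor1-deficient cells the dimmer gave 0.67, and the brighter 1.77 when its non-uniform spot was kept. The direction of Dnajb9 under Torin1 is therefore not settled by this array.

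Xbp1, the factor downstream of IRE1, had signals of 72.6 in M1, 108 in M2, 139 in Lamtor1-deficient and 53.7 with Torin1. All neighbours in that order were more than 2 technical SDs apart, with Lamtor1-deficient cells highest and Torin1-treated cells lowest. The log2 ratio to M2 was 0.36 ± 0.090 in Lamtor1-deficient cells, −1.01 ± 0.092 with Torin1 (2.02-fold lower) and −0.58 ± 0.098 in M1. The probe, A_55_P1994032 (mm9, chr11:5425816-5425875), was read as total Xbp1 RNA, and spliced and unspliced forms were not analysed here.

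**Figure D3:**
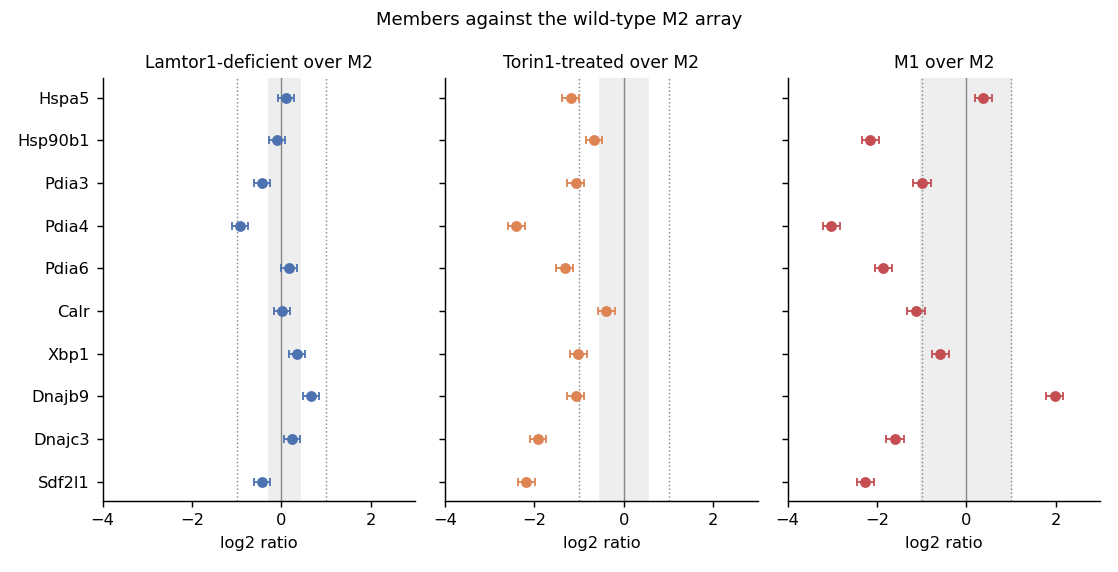
Log2 ratio of each gene to the wild-type M2 array in the 3 comparisons. Points are the probe used for the gene, bars are 2 technical SDs on either side, dotted lines mark 2-fold, and the grey band spans the middle quartiles of all genes well above background. With Torin1 all 10 points lie below 0 and 8 are past 2-fold (9 and 7 with the brighter Dnajb9 probe, which is not drawn), while all points of Lamtor1-deficient cells lie within 2-fold.

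For the set as a whole, Torin1-treated over M2 gave 8 of 10 genes 2-fold or more lower, where 11.8% of all genes were. These were all but Hsp90b1 and Calr, and they include Dnajb9 by its dimmer probe. With its brighter probe the count was 7, and 9 of 10 genes were below 0. None was higher (14.3% of all genes). The median log2 ratio of the 10 genes was −1.13, between −2.40 for Pdia4 and −0.39 for Calr, and that of all genes was −0.05. Of the genes well above background, 2.80% had a lower ratio than Pdia4, 3.57% than Sdf2l1, 4.69% than Dnajc3 and 12.9% than Xbp1. For the other genes the share was 8.76% (Pdia6), 10.3% (Hspa5), 11.7% (Pdia3), 11.8% (Dnajb9, dimmer probe), 20.7% (Hsp90b1) and 30.4% (Calr). Dnajb9, Pdia3 and Xbp1 were close to 2-fold, and the count was 5 when arrays were scaled on the probes well above background on all of them.

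Lamtor1-deficient cells had 0 of the 10 genes 2-fold or more lower than M2, where 8.66% of all genes were, and 0 higher (8.91%). The median was 0.06, against 0.04 over all genes, with 6 genes above 0 and 4 below. It turned to −0.13 with quantile normalization, where 1 gene was lower, and to −0.01 with scaling on probes well above background. Pdia4, Pdia3 and Sdf2l1 were the low end at −0.93, −0.44 and −0.43, and Dnajb9 and Xbp1 the high end at 0.67 and 0.36. The signs of Calr, Hspa5 and Pdia6, all close to 0, turned with quantile normalization. The brighter Dnajb9 probe with its non-uniform spot kept would make 1 gene higher.

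In M1 over M2, 6 of the 10 genes were 2-fold or more lower, where 19.3% of all genes were, namely Hsp90b1, Pdia4, Pdia6, Calr, Dnajc3 and Sdf2l1. Dnajb9 was the 1 gene 2-fold or more higher (30.5% of all genes), by its dimmer probe. The median was −1.36 against 0.74 over all genes and 0.08 over genes well above background, as all 10 were, of which 25.3% were 2-fold or more lower and 25% higher. The count of lower genes was 7 with quantile normalization, with normexp background correction and with scaling on probes well above background, each adding Pdia3 (−0.99), and 8 with alignment at the median, which added Pdia3 and Xbp1. The scale of this comparison depends on the alignment, since aligning the arrays at their medians moved the median of all genes by −0.82 and that of the 10 genes to −2.18. The 3 comparisons share the M2 array and are set side by side without a measure of their likeness.

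**Figure D4:**
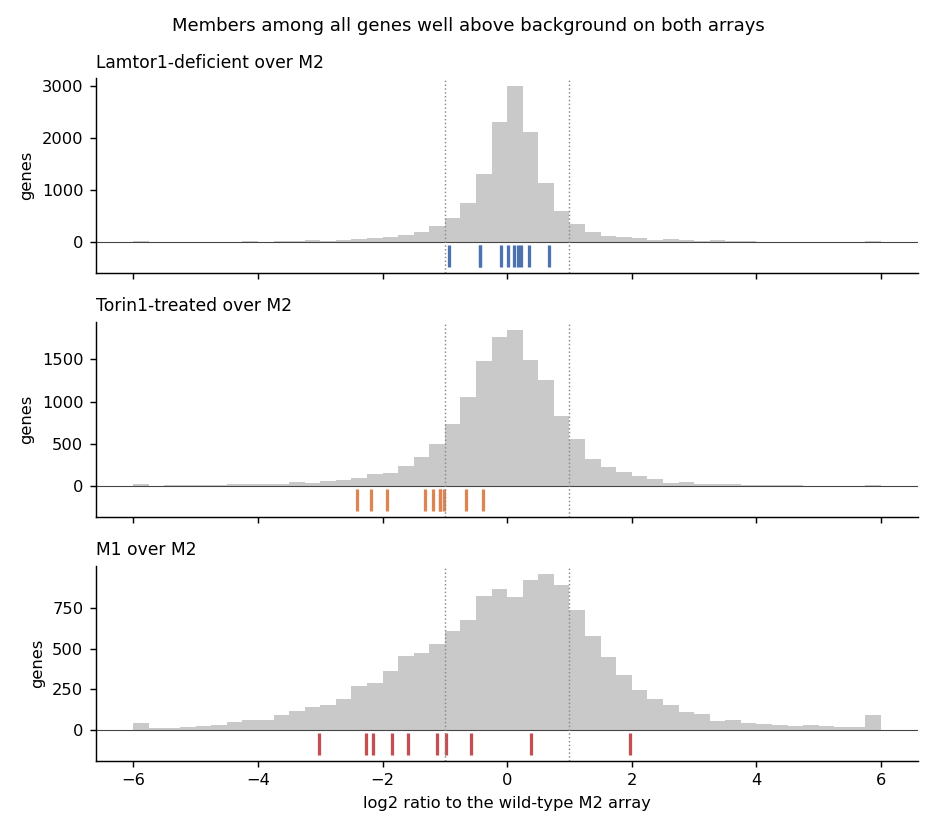
Histograms of the log2 ratio to M2 over all genes well above background on both arrays, with the 10 genes as coloured ticks under each; values past the ends of the axis are counted in the outermost bars. All ticks of Torin1-treated cells lie below 0, with that of Calr (−0.39) inside the middle quartiles, those of Lamtor1-deficient cells between −0.93 and 0.67, and those of M1 spread from −3.02 to 1.97.

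The IL-4-stimulated arrays without functional Lamtor1 or with mTOR inhibited can be compared without M2. Torin1-treated over Lamtor1-deficient cells gave 7 of 10 genes 2-fold or more lower, where 11.7% of all genes were, and 0 higher (12.7% of all genes). All 10 were below 0, and the median over all genes well above background was −0.09. The log2 ratios had a median of −1.42 and ran from −2.15 for Dnajc3, −1.75 for Sdf2l1 and −1.74 for Dnajb9 to −0.57 for Hsp90b1 and −0.40 for Calr. Hspa5 was at −1.30 and Xbp1 at −1.37. The technical SD was 0.092, and the count of 7 was also obtained with alignment at the median, with quantile normalization and with scaling on probes well above background. The ratio of Dnajb9 rests on its dimmer probe.

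Other genes of ER folding were read from a list of 25. Of these, 8 (32%, against 11.8% of all genes) were 2-fold or more lower with Torin1, 0 were higher (14.3% of all genes), and the median was −0.82. The lowest were Dnajb11 (−1.98), a J-protein partner of BiP, Manf (−1.89), a secreted protein that binds BiP, Hyou1 (−1.63), the nucleotide exchange factor of BiP, and Serp1 (−1.30), which protects membrane proteins at the translocon. Canx, the membrane-bound relative of calreticulin, was at −0.94. In Lamtor1-deficient cells the list had a median of 0.28. The reductase Dnajc10 (ERdj5), at 1.02, was the 1 gene past 2-fold (4%, against 8.91% of all genes higher). In M1, 9 (36%) were lower and 2 (8%) higher, against 19.3% and 30.5% of all genes. The median was −0.35, and ratios ran from Txndc5 at −3.82 to the oxidase Ero1a (Ero1l on the array) at 3.91.

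ER entry, glycosylation and export had 32 genes. With Torin1, 8 (25%) were 2-fold or more lower and 1 (3.1%) higher, against 11.8% and 14.3% of all genes, with a median of −0.50. The translocon-associated Ssr1 (−1.61) and Ssr2 (−1.36), the COPII coat subunit Sec24d (−1.45) and the oligosaccharyltransferase subunit Ostc (−1.36) were the lowest. In Lamtor1-deficient cells the median was 0.39 (0.26 with quantile normalization). Of the 32 genes 30 were above 0, as were 14701 of all 23202 genes. Stt3b, a catalytic subunit of that transferase, was at 1.51 and the signal receptor subunit Srprb at 1.13. These 2 were past 2-fold (6.25%, against 8.91% of all genes higher). In M1, 14 (43.8%) were lower and 1 (3.1%) higher, against 19.3% and 30.5% of all genes. The median was −0.83, and the signal peptidase subunit Spcs3 (−3.30) and Stt3b (−3.29) were lowest.

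Genes of ER-associated degradation were read from a list of 18. Torin1 had 2 lower (11.1%, against 11.8% of all genes), Derl3 (−1.63) and Herpud1 (−1.16). It had 0 higher (14.3% of all genes) and a median of −0.19. Lamtor1-deficient cells had 1 lower (5.56%, against 8.66% of all genes), Derl3 (−1.84), and a median of 0.31. In M1, 3 were lower and 3 higher (16.7% each, against 19.3% and 30.5% of all genes), with a median of −0.01. Among these were the adaptor Sel1l at −1.63 and Derl1 at 1.54. The 3 ER lists together hold 75 genes. Torin1 had 18 lower (24%) and 1 higher (1.33%), against 11.8% and 14.3% of all genes. Lamtor1-deficient cells had 1 lower (1.33%) and 3 higher (4%), against 8.66% and 8.91%. M1 had 26 lower (34.7%) and 6 higher (8%), against 19.3% and 30.5%. The medians of the 75 genes were −0.47, 0.38 and −0.46 in the same order.

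The sensors themselves were read by the brightest probe of each gene. Ern1, which encodes IRE1, had a log2 ratio of 1.13 with Torin1, 0.83 in Lamtor1-deficient cells and 1.99 in M1. Its direction was thus opposite to that of Xbp1 with Torin1 and in M1. Eif2ak3, which encodes PERK, was at −0.92, 0.23 and −0.43 in the same order. Atf6 was close to M2 with Torin1 (−0.29) and in Lamtor1-deficient cells (0.05) and at −3.24 in M1, and Atf6b was at −0.03, −0.03 and −0.31. Of the proteases that cleave ATF6 in the Golgi, Mbtps1 was at −0.50, 0.11 and −2.39 and Mbtps2 at 0.53, 1.13 and −1.89. Rtcb (D10Wsu52e on the array), the ligase that joins the ends of spliced Xbp1 RNA, was at 0.67 with Torin1, 0.16 in Lamtor1-deficient cells and −1.59 in M1. Of these 7 genes, Torin1 had 0 lower and 1 higher (14.3%, against 14.3% of all genes). Lamtor1-deficient cells had 0 lower and 1 higher (14.3%, against 8.91%). M1 had 4 lower (57.1%, against 19.3%) and 1 higher (14.3%, against 30.5%).

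Outputs of the PERK arm, 10 genes around the factor Atf4, were described beside the chaperones because amino acid shortage also acts on them. In Lamtor1-deficient cells 4 (40%, against 8.91% of all genes) were 2-fold or more higher, with a median of 0.99. All 10 were above 0, as were 14701 of all 23202 genes. Chac1, a glutathione-degrading enzyme, was highest at 2.56, followed by asparagine synthetase (Asns) at 1.92 and the pseudokinase Trib3 at 1.65. With Torin1 3 genes (30%, against 11.8% of all genes) were 2-fold or more lower, Asns at −2.47, Chac1 at −1.69 and Trib3 at −1.30. Ppp1r15a (GADD34), which restores translation, was the 1 gene higher (10%, against 14.3%), at 2.49. The median with Torin1 was 0.07 and turned to −0.18 with alignment at the median. In M1, 7 (70%) were higher and 0 lower, against 30.5% and 19.3% of all genes. Nupr1 at 6.65 and Ddit3 (CHOP) at 3.74 were among the 7. The median was 2.61, against 0.74 over all genes.

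Chaperones of the cytosol and of mitochondria were read in the same way. Of 17 cytosolic chaperones, 2 were 2-fold or more lower with Torin1, Dnaja1 (−1.08) and Hspa1a (−1.03), and 2 higher, with a median of −0.40. These counts were 11.8% each, against 11.8% lower and 14.3% higher over all genes. Of 8 mitochondrial chaperones 0 were past 2-fold, with a median of 0.10 that turned to −0.15 with alignment at the median. In Lamtor1-deficient cells the medians were 0.11 and 0.62, and the cytosolic one turned to −0.08 with quantile normalization. In each list 1 gene was higher, Dnajb6 (1.15) and Hspe1 (1.19), or 5.88% and 12.5% against 8.91% of all genes. The M1 medians were −0.45 and −1.15. Of 12 housekeeping genes, 3 (25%, against 11.8% of all genes) were 2-fold or more lower with Torin1. The medians were −0.06 with Torin1, 0.10 in Lamtor1-deficient cells (−0.07 with quantile normalization) and −0.15 in M1.

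**Figure D5:**
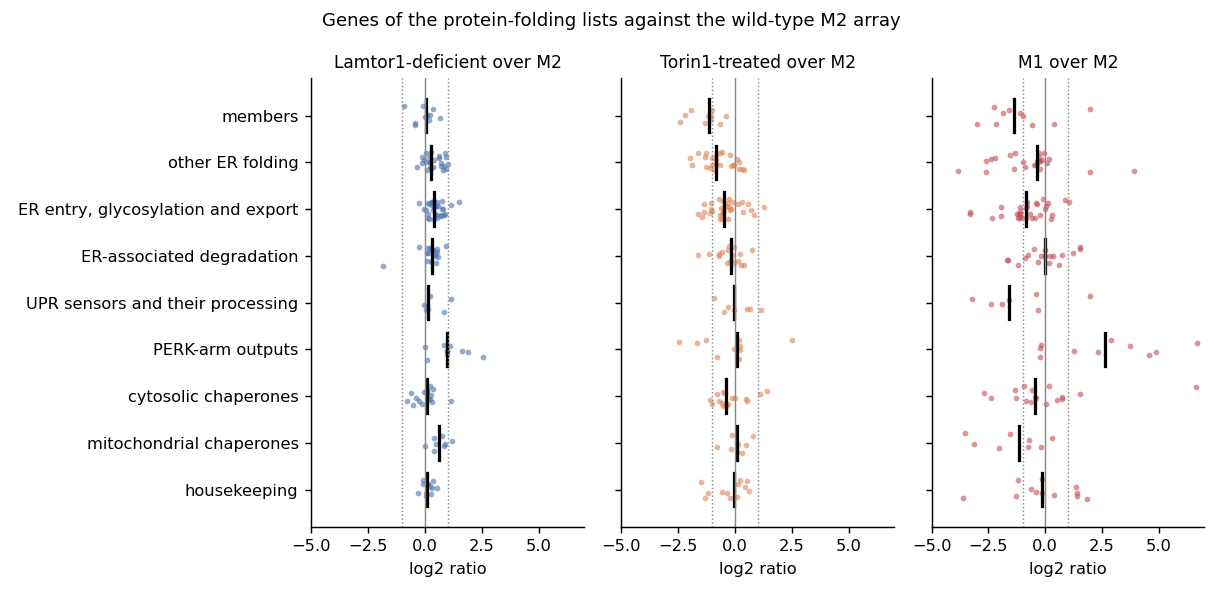
Log2 ratio to M2 of every gene of the folding lists, 1 point a gene, with black bars at the medians and dotted lines at 2-fold. In the Torin1 panel the 10 genes of the set have the lowest median (−1.13), followed by other ER folding (−0.82) and ER entry, glycosylation and export (−0.50). This order is a description only, since the set and the lists were chosen with earlier results of these data known.

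Fibroblast markers had negative medians with Torin1 and in M1. With Torin1, 4 of 8 (50%, against 11.8% of all genes) were 2-fold or more lower, with a median of −1.02. All 8, among them Col3a1 (−2.89), Col1a1 (−1.86) and Col1a2 (−1.44), were below 0, as were 12225 of all 23202 genes. In M1, 5 of 8 (62.5%) were lower, Lum and Pdgfra among them, and 1 (12.5%) was higher, Dcn at 2.55 (median −2.06). The shares over all genes were 19.3% and 30.5%. In Lamtor1-deficient cells 0 were lower and 3 (37.5%, against 8.91% of all genes) higher (median 0.45). Lum was not well above background on the Lamtor1-deficient, Torin1-treated and M1 arrays, nor was Pdgfra in M1. Collagens are secreted cargo of the ER, and fibroblasts also express every chaperone of the set. Their part in the result was not tested.

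Genes with the ERSE in their promoter that are not in the set were read as well. Of 19 on the array, 11 were well above background, and of these 4 were 2-fold or more lower and 1 higher with Torin1. Among all genes well above background, 13.2% were lower and 11.9% higher. The median was −0.55 against 0.01 over those genes. Those lower were Creld2 (−1.12), a chaperone of the ER, Derl3 (−1.63), Hnrnpa3 (−1.50), an RNA-binding protein, and Adcy3 (−2.39), an adenylate cyclase. Canx, at −0.94, and Syvn1, the ubiquitin ligase of ER-associated degradation, at 0.28, also hold the element. In Lamtor1-deficient cells 3 were lower (7.73% of genes well above background) and 0 higher (7.9%), with a median of −0.05. In M1, where Acacb took the place of Adcy3 among the 11 genes well above background, 4 were lower (25.3%) and 1 higher (25%), with a median of −0.26. With the last base left free, 38 genes outside the set were well above background, of which 6 were lower and 5 higher with Torin1, with a median of −0.16.

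The genes nearest to Hspa5 in their 3 log2 ratios to M2, by Euclidean distance over the 12792 genes whose probe was well above background throughout, were Impg1 (0.0814), Cfl1 (0.0901), Sub1 (0.125), Plod1 (0.125) and 2900040C04Rik (0.161). For Xbp1 they were Echdc1 (0.120), Mdh1 (0.133), Agpat5 (0.141), Mrps36 (0.155) and Chid1 (0.166). All these distances were below 2 technical SDs of a single ratio (0.180 to 0.197), so the order and choice of these genes are not resolved. The nearest other gene of the set was Xbp1 for Hspa5, at 1.01 with 1161 as its rank, and Pdia3 for Xbp1, at 0.894 with a rank of 997. The 3 ratios share the M2 array, and no member of the set was among the 5 nearest genes of either.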

How the data were processed

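The authors hybridized RNA of 4 cultures to Agilent arrays in 1 colour and deposited the scanner output, whose processed signal is a spot intensity after background subtraction and correction of trends across the array by Feature Extraction (version 10.7.3.1 in the file headers, 10.5.1.1 per the labels). It is not normalized between arrays. A series-wide deposited table repeats these intensities within 0.497%. The genotype of the control cells is given as wild type per the labels, and the study's methods name floxed littermates as controls. Fold changes that the authors supplied with the paper were not used.

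Following the study's methods, a signal threshold of 1 was set and each array was divided by its 75th percentile, here taken over all non-control probes. Control spots were left out here. Spots marked as outliers were left out and spots of 1 probe averaged. A gene was read by its brightest probe measured on all arrays, and it was counted as lower or higher at 2-fold or more. No test or p-value is given, since a condition has 1 array, and precision is limited by that number. The members and lists were chosen with earlier results of these data known, and the ratio of Torin1-treated over Lamtor1-deficient cells was added after the data had been seen. The text names every gene of the set, Lamtor1, the UPR sensors, genes with the largest ratios of the other lists (up to 4 a list and comparison) and the 5 genes nearest to Hspa5 and to Xbp1. Canx, markers of other cells and genes with the ERSE were named besides. 1 of the marker genes is not reported here. Probes were found by the symbols of the array, some of them older than the current symbols printed, and probe coordinates (mm9) were not set against the promoters (RefSeq, GRCm38.p6).

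The alternatives were a shift to the median, quantile normalization, scaling at the 75th percentile of probes that all arrays measured well above background, normexp (offset 50) in place of the background subtraction, the lowest well-measured signal as a floor, outlier spots kept, the series table, only probes well above background, the mean over probes of a gene, any probe past the fold, and a 3-fold threshold. The brighter Dnajb9 probe with its non-uniform spot kept was added after the data had been seen. The procedure was tested on simulated data. Software was Python 3.11.15 (pandas 2.3.3, NumPy 2.4.6, matplotlib 3.10.9) and, for normexp, limma 3.58.1 in R 4.3.3.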

Additional observations from a re-analysis of the deposited data

How the results depend on the processing

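No paired analysis was possible because each condition has 1 array. The 10 genes had a negative median under every alternative in Torin1-treated and M1 BMDMs, and it was −1.38 with Torin1 and −2.18 in M1 with a shift to the median, −1.23 with Torin1 under quantile normalization and −1.46 in M1 under normexp. In Lamtor1-deficient cells quantile normalization gave −0.13, with 1 gene 2-fold or more lower (Pdia4, −1.02). The count of lower genes with Torin1 was 5 with scaling on probes well above background and 3 at a 3-fold threshold. With outlier spots kept, and with the brighter Dnajb9 probe, 1 gene was higher in Lamtor1-deficient cells and 0 in M1, and Dnajb9 with Torin1 turned to 0.27. The median of the 75 genes of the ER lists was 0.22 in Lamtor1-deficient cells and −0.71 in M1 under quantile normalization, and −0.72 with Torin1 and −1.28 in M1 with the shift to the median. Over all genes that shift moved the median by −0.25 with Torin1 and −0.82 in M1, quantile normalization by −0.80 in M1, normexp by 0.26 with Torin1, and the floor by 0.11 in M1. The count of lower genes with Torin1 was 7 under normexp, with outlier spots kept, with the mean over probes and with the brighter Dnajb9 probe, and that in M1 ran from 5 to 8. Every probe of the set was well above background, but the dimmer Dnajb9 probe lost its 2-fold difference with Torin1 under normexp. The single array of each condition limits all values.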
